A study of Danio rerio with 48 samples.

Results

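The Hnf4 paralogs of zebrafish, hnf4a, hnf4b and hnf4g, were followed through early development in yolk tissue and in whole embryos. They were taken by gene symbol from a count table and are 3 of its 36109 genes. All 3 passed the filter on low counts and were tested. Every library came from wild type (WT) embryos, and the labels name no treatment. The 8 groups combined a tissue, yolk or whole embryo, with an age of 6, 10, 26 or 48 hours after fertilization (hpf), with 4 libraries each. A whole embryo includes its yolk cell, so each pair of tissues compares a part with the whole that holds it. Another 16 samples, of body tissue, were not analysed here.

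Hnf4 proteins are nuclear receptors that bind DNA as dimers and carry fatty acids as ligands. In mammals HNF4A is a central regulator of genes for apolipoproteins, clotting factors and glucose metabolism in liver, gut, kidney and pancreas, and HNF4G is found mainly in gut and kidney epithelium. Hnf4b is a further member known from frogs and fish. In the fish embryo the yolk syncytial layer, a multinucleate sheet at the surface of the yolk, packs yolk lipid into lipoproteins before liver and gut function.

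Levels are given as CPM, which are counts of a gene brought to a common library size with TMM factors. They are written for replicates 1 to 4, and then as mean ± SD over n = 4 libraries. Gene calls are those of edgeR's quasi-likelihood test with Benjamini-Hochberg adjustment over the 26268 genes tested and a threshold of 0.05. CPM holds no correction for transcript length, so levels are compared between groups within a gene, and between genes only the change of a ratio is compared. In bulk samples fewer cells of a type and less RNA per cell cannot be told apart. Whether a group's libraries came from different clutches is not in the labels, so p-values measure the spread between these libraries only, which may be technical.

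Library totals ran from 32302472 to 39765045 counts, and TMM factors from 0.529 to 1.51. Yolk replicate 1 at 26 hpf stood apart from the other 3 libraries of its group in muscle, neural, blood and yolk syncytial markers. Its summed level of 5 muscle markers was 2617 CPM, against 52.1 to 103 CPM in the others, and that of 5 yolk syncytial markers was 366 CPM, against 640 to 867 CPM. The sum of 4 neural markers was 240 CPM, against 18.7 to 55.2 CPM, and that of 8 blood markers 766 CPM, against 2682 to 3902 CPM. Levels and log2 changes of the members that rest on this library are given with and without it. The other yolk libraries of 26 hpf were not alike in all markers, as 5 epidermal markers summed to 6827, 3281, 3038 and 369 CPM in replicates 1 to 4. In yolk at 6 hpf the epidermal sums were 183, 1778, 154 and 288 CPM, with replicate 2 the highest. Counts from 1 to 20 were even numbers in 70% to 85.6% of cases, depending on the library, and hnf4g had an even count in 22 of its 25 libraries above 0. Whether each fragment was counted more than once was not tested. Intervals come from edgeR's fit and include the spread between libraries. Bounds for low counts cover counting error only, with no allowance for such repeats. A bound covers that error for the group at 0 alone and takes the other group's counts as they stand.

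Transcripts of hnf4a were highest in yolk at the earliest age and fell by more than an order of magnitude before a partial return. The 4 yolk libraries at 6 hpf held 1769, 1521, 1804 and 1561 CPM (1664 ± 143 CPM, n = 4). At 10 hpf they held 431, 324, 422 and 413 CPM (397 ± 49.5 CPM, n = 4), so that the ages did not overlap. At 26 hpf they held 29.5, 60.3, 81.5 and 118 CPM (72.4 ± 37.2 CPM, n = 4), and 86.7 ± 29.3 CPM (n = 3) without replicate 1. Again every library lay below every library of the age before. By 48 hpf hnf4a stood at 154, 161, 153 and 151 CPM (155 ± 4.18 CPM, n = 4), all above the highest library of 26 hpf.

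In whole embryos hnf4a followed the same order of ages at lower levels. The libraries held 176, 101, 139 and 138 CPM at 6 hpf (138 ± 30.6 CPM, n = 4) and 29.4, 19.7, 25.1 and 23.4 CPM at 10 hpf (24.4 ± 4.01 CPM, n = 4). The lowest group was 26 hpf, with 2.38, 3.37, 4.07 and 4.40 CPM (3.56 ± 0.893 CPM, n = 4). At 48 hpf the level was 8.02, 8.06, 7.21 and 5.83 CPM (7.28 ± 1.05 CPM, n = 4), again with no overlap between the last ages. Ordered over all 8 groups, hnf4a ran from yolk at 6 and 10 hpf through yolk at 48 hpf, whole embryos at 6 hpf and yolk at 26 hpf to whole embryos at 10, 48 and 26 hpf. Neighbours in that order overlapped between yolk at 48 hpf and whole embryos at 6 hpf, and between these whole embryos and yolk at 26 hpf.

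Transcripts of hnf4b peaked later, at 10 hpf. In yolk at 6 hpf the libraries held 378, 379, 306 and 434 CPM (374 ± 52.2 CPM, n = 4), and at 10 hpf 655, 683, 688 and 561 CPM (647 ± 59.2 CPM, n = 4). The 10 hpf libraries were all above those of 6 hpf. At 26 hpf hnf4b stood at 80.6, 156, 186 and 282 CPM (176 ± 83.4 CPM, n = 4), and at 208 ± 66.0 CPM (n = 3) without replicate 1. Yolk at 48 hpf held 135, 91.6, 96.7 and 93.3 CPM (104 ± 20.8 CPM, n = 4), which overlapped the range of 26 hpf through replicate 1 of the earlier age.

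Whole embryos at 6 hpf held 39.8, 40.2, 25.3 and 41.1 CPM of hnf4b (36.6 ± 7.57 CPM, n = 4). At 10 hpf they held 43.3, 41.1, 42.8 and 43.5 CPM (42.7 ± 1.08 CPM, n = 4), just above the earlier libraries. The later ages were far lower, with 5.08, 7.54, 7.08 and 6.57 CPM at 26 hpf (6.57 ± 1.07 CPM, n = 4) and 6.70, 5.52, 5.83 and 2.99 CPM at 48 hpf (5.26 ± 1.59 CPM, n = 4). These last groups overlapped each other, as did yolk at 26 and 48 hpf, while all other neighbours in the order of hnf4b levels were apart.

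The third paralog, hnf4g, was close to undetected until 48 hpf. No yolk library held a count of hnf4g at 6 hpf, and 3 counts over the group, taken as the limit that a count of 0 allows, would be 0.0274 CPM. Yolk counts were 17, 16, 30 and 0 at 10 hpf and 40, 12, 38 and 18 at 26 hpf, or 0.599 ± 0.466 CPM and 1.102 ± 0.552 CPM (n = 4 each). Without replicate 1 the 26 hpf level was 1.08 ± 0.674 CPM (n = 3). At 48 hpf the yolk counts were 265, 401, 286 and 412, or 9.33, 11.2, 8.14 and 11.5 CPM (10.1 ± 1.60 CPM, n = 4). These 4 libraries stood above all other 28.

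Whole embryos never exceeded 48 counts of hnf4g in a library. The counts were 10, 4, 0 and 18 at 6 hpf, 6, 12, 0 and 10 at 10 hpf, 12, 16, 30 and 30 at 26 hpf, and 34, 48, 26 and 30 at 48 hpf. The mean levels were 0.214 ± 0.212, 0.144 ± 0.111, 0.418 ± 0.157 and 0.683 ± 0.158 CPM (n = 4 each). Every group from yolk at 26 hpf down to whole embryos at 10 hpf overlapped its neighbour in the order of hnf4g levels.

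**Figure D1:**
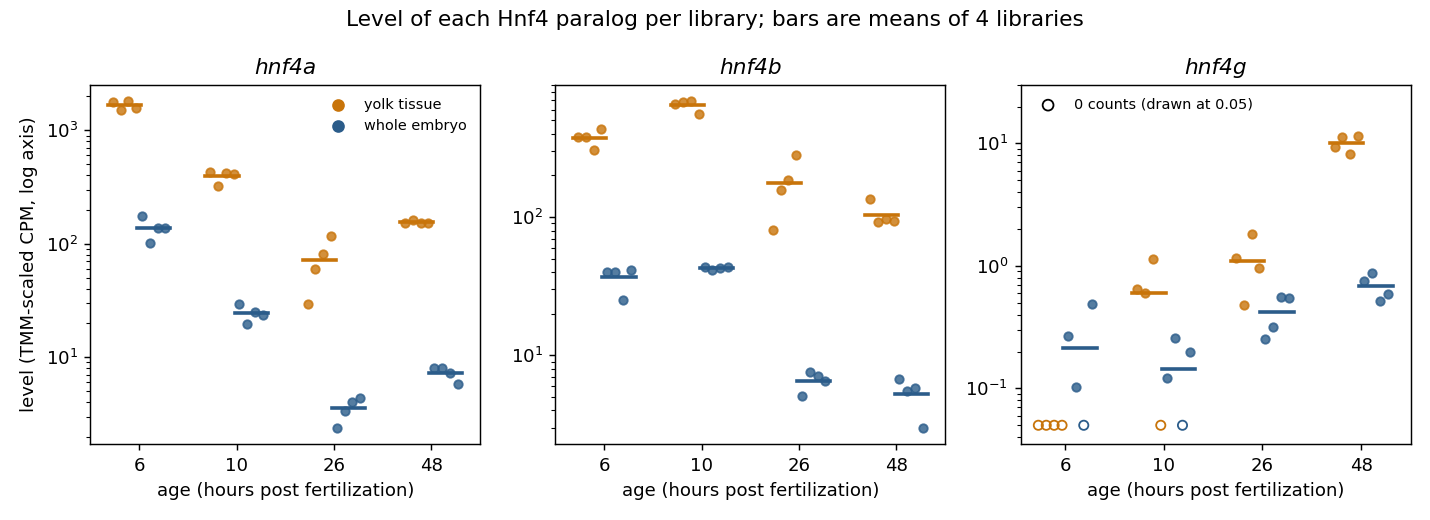
Level of hnf4a, hnf4b and hnf4g in TMM-scaled CPM (log axes, with a separate range in each panel) against age in hpf, 1 point per library, with a bar at the mean of each group's 4 libraries. Yolk tissue is orange and whole embryo blue, and open circles at 0.05 mark libraries with 0 counts. The yolk peak lies at 6 hpf for hnf4a, at 10 hpf for hnf4b and at 48 hpf for hnf4g.

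By counts within a library, the larger share of the family moved from hnf4a to hnf4b with age, and then back. Shares of the summed counts of the 3 genes cancel the scaling of the library. In yolk hnf4a took 81.6 ± 3.12% of the family's counts at 6 hpf, 38.0 ± 4.33% at 10 hpf, 28.5 ± 1.67% at 26 hpf and 57.7 ± 4.20% at 48 hpf (n = 4 each). The share of hnf4b was 18.4 ± 3.12%, 61.9 ± 4.31%, 70.9 ± 1.55% and 38.5 ± 4.68%, the mirror image but for a few counts of hnf4g. Whole embryos went through the same turn, with hnf4a at 78.6 ± 5.72%, 36.1 ± 3.42%, 33.5 ± 3.78% and 55.7 ± 4.47%, and hnf4b at 21.3 ± 5.69%, 63.7 ± 3.30%, 62.6 ± 4.74% and 39.1 ± 5.38%. Because the transcripts' lengths were not used, such a share does not say which paralog had more molecules, nor at which age that changed. The size of a change in share depends on length too, and only the change in the ratio of 2 paralogs does not.

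The switch was tested as the log2 ratio of hnf4b to hnf4a counts within a library, by an exact two-sided permutation test of 4 against 4 libraries. With 70 splits the smallest p is 0.0286, which becomes 0.0476 after Benjamini-Hochberg adjustment over the 30 ratio tests made. Of these tests 18 were at that p. With fewer there the adjusted value would be higher, so the 18 calls depend on each other. Some of them compare yolk at 6 hpf, where hnf4g had 0 counts in all 4 libraries. Its ratios there are set by the other paralog and the 0.5 added to each count. From 6 to 10 hpf the ratio of hnf4b to hnf4a rose 7.30-fold in yolk (from a mean log2 of -2.16 to 0.71) and 6.68-fold in whole embryos (from -1.92 to 0.82), each at that smallest exact permutation p. From 26 to 48 hpf it dropped 3.74-fold in yolk (from 1.32 to -0.59) and 2.68-fold in whole embryos (from 0.91 to -0.52), again at the smallest p. In all of these 4 comparisons the libraries of the ages did not overlap.

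Between 10 and 26 hpf the ratio moved further in yolk, by 1.52-fold at the smallest exact permutation p. Whole embryos gave a change of 1.06-fold (exact permutation p = 0.571, adjusted p = 0.612). At 26 hpf itself the ratio was 1.33-fold higher in yolk than in whole embryos, with no overlap and at the smallest p. All 4 same-numbered pairs showed that direction, but an exact sign-flip test of 4 pairs cannot go below p = 0.125, the value it gave. At the other ages the tissues' ratios overlapped, with log2 differences of -0.24 at 6 hpf (p = 0.429), -0.12 at 10 hpf (p = 0.514) and -0.07 at 48 hpf (p = 0.743), all by the exact permutation test.

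At 26 hpf the share varied less between yolk libraries than the level did. Over the 4 yolk libraries of that age hnf4a spanned 29.5 to 118 CPM while its share spanned 26.5% to 30.3%. Without replicate 1 the log2 change of the ratio from 10 to 26 hpf was 0.56, that from 26 to 48 hpf was -1.86, and the yolk to whole embryo difference at 26 hpf was 0.36.

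The share of hnf4g was 0% in yolk at 6 hpf, 0.0556 ± 0.0421% at 10 hpf, 0.544 ± 0.393% at 26 hpf and 3.76 ± 0.720% at 48 hpf (n = 4 each). In whole embryos it was 0.117 ± 0.114%, 0.221 ± 0.180%, 3.90 ± 1.01% and 5.25 ± 1.13%. All whole embryo libraries at 26 hpf thus had a higher share of hnf4g than all yolk libraries of that age. At 26 hpf the ratio of hnf4g to hnf4a was lower in yolk by 2.89 on the log2 scale and that of hnf4g to hnf4b by 3.30, both at the smallest exact permutation p. Without yolk replicate 1 of 26 hpf these differences were -3.34 and -3.70. From 26 to 48 hpf in yolk the ratio of hnf4g to hnf4a rose 4.10-fold and that to hnf4b 15.3-fold, at the same p, or by 2.48 and 4.34 on the log2 scale without that library against 2.03 and 3.94 with it. By 48 hpf the log2 difference between tissues was -0.54 for hnf4g against hnf4a (exact permutation p = 0.0571, adjusted p = 0.0902) and -0.47 against hnf4b (p = 0.257).

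**Figure D2:**
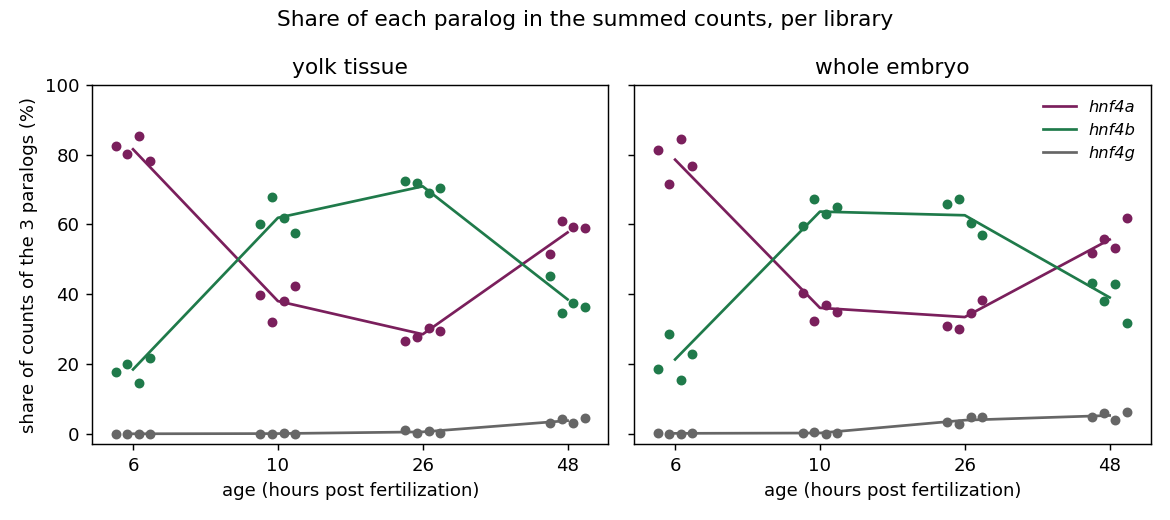
Percent of the summed counts of hnf4a, hnf4b and hnf4g taken by each paralog, against age in hpf, with 1 point per library and lines through the means of 4 libraries. The left panel is yolk tissue and the right panel whole embryo. In both, hnf4a has the larger share of counts at 6 hpf, hnf4b at 10 and 26 hpf, and hnf4a again at 48 hpf. The shares are not corrected for transcript length.

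Both hnf4a and hnf4b were higher in yolk than in whole embryos at every age. The log2 difference of hnf4a was 3.59 (SE 0.27) at 6 hpf, 4.03 (SE 0.27) at 10 hpf, 4.34 (SE 0.28) at 26 hpf and 4.41 (SE 0.28) at 48 hpf, or 12.03-, 16.3-, 20.3- and 21.2-fold. The edgeR adjusted p was at most 2.3e-12. Without yolk replicate 1 the log2 differences at 26 hpf were 4.60 for hnf4a and 4.98 for hnf4b. For hnf4b the log2 differences were 3.35 (SE 0.27), 3.92 (SE 0.27), 4.74 (SE 0.28) and 4.31 (SE 0.28), or 10.2-, 15.2-, 26.8- and 19.8-fold, with edgeR adjusted p of at most 7.9e-12. No yolk library overlapped a whole embryo library of its age for either gene.

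Calls of this kind were common, since 24.8%, 24.5%, 20.6% and 22.8% of all genes tested were higher in yolk at the 4 ages, and 27.4%, 29.9%, 25.3% and 27.5% were lower. By size hnf4a lay above 96.8%, 97.7%, 97.7% and 98.5% of genes, and hnf4b above 94.96%, 97.0%, 98.7% and 98.2%. Scaling by library totals alone shifted the median of all genes by -0.37, -0.87, -1.06 and -0.61 on the log2 scale at the 4 ages. Under it the difference of hnf4a was 3.21, 3.15, 3.12 and 3.80, and that of hnf4b 2.98, 3.04, 3.54 and 3.69.

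For hnf4g the direction depended on age. At 6 hpf whole embryos held 32 counts in all and yolk 0. With yolk set at the limit of 3 counts, taken as independent, hnf4g was at least 7.79-fold lower in yolk (edgeR adjusted p = 0.0031). Of those counts 18 came from whole embryo replicate 4, and without it the bound was 4.52-fold. Whole embryo replicate 3 of that age held 0 counts too, so the tissues overlapped. At 48 hpf it was 14.7-fold higher in yolk (log2 difference 3.87, SE 0.82, edgeR adjusted p = 0.00032). At 26 hpf the log2 difference was 1.38, with a 95% interval from -0.22 to 2.98 (edgeR adjusted p = 0.15), and 1.35 without yolk replicate 1. At 10 hpf the log2 difference of 2.02 passed narrowly (edgeR adjusted p = 0.043), but with a replicate block it was 2.07 with adjusted p = 0.057. That call was also lost with library totals (1.13, adjusted p = 0.24). Leaving out 1 library ended it too, with log2 differences of 1.98, 2.02 and 1.51 without yolk replicates 1, 2 and 3 of that age and of 1.95, 1.62 and 2.21 without whole embryo replicates 1, 3 and 4.

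**Figure D3:**
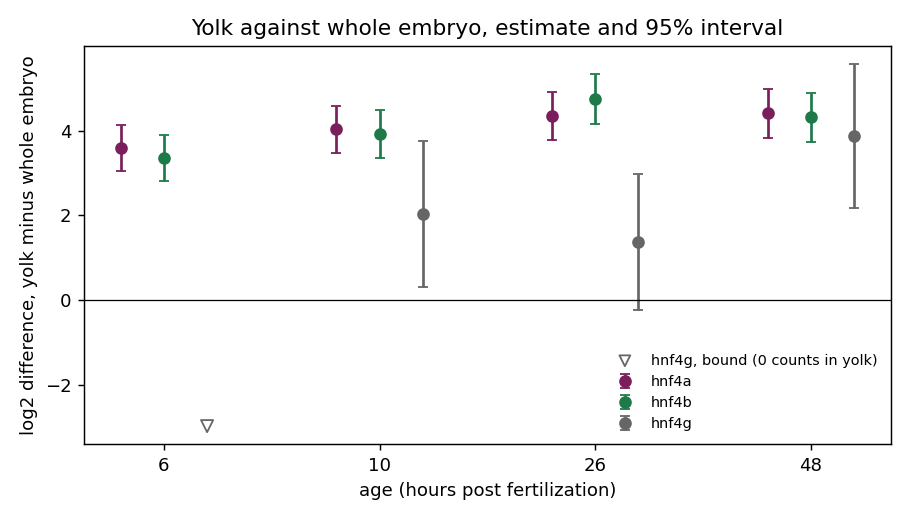
Log2 difference of each paralog between yolk and whole embryo at 6, 10, 26 and 48 hpf, as the edgeR estimate with its 95% interval from 4 against 4 libraries. The open triangle marks the bound for hnf4g at 6 hpf, where yolk held 0 counts. All estimates of hnf4a and hnf4b lie between 3.35 and 4.74, and the interval of hnf4g includes 0 at 26 hpf.

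The steps between ages gave each paralog its own course in yolk. From 6 to 10 hpf hnf4a was 4.19-fold lower (log2 change -2.07, SE 0.25, edgeR adjusted p = 5.4e-08) while hnf4b was 1.73-fold higher (log2 change 0.79, SE 0.24, adjusted p = 0.0079). Over that step hnf4g was at least 21.9-fold higher at 10 hpf with 63 counts against 0 (edgeR adjusted p = 0.00019). Yolk replicate 4 of 10 hpf held 0 counts too, so the ages overlapped, and without replicate 3 the bound was 15.3-fold. The ratio of hnf4g to hnf4b was not called (exact permutation p = 0.143, adjusted p = 0.204). That of hnf4g to hnf4a rose at the smallest exact permutation p, over a step at which hnf4a fell. For replicate 4 of 10 hpf, at 0 counts like all of 6 hpf, this ratio differed through hnf4a alone. The full separation behind that p thus needed the fall of hnf4a and is no separate sign of a rise of hnf4g. Of all genes 25.8% were higher and 23.4% lower.

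From 10 to 26 hpf hnf4a and hnf4b both fell, 5.50-fold (log2 change -2.46, SE 0.26, edgeR adjusted p = 2.6e-09) and 3.68-fold (log2 change -1.88, SE 0.25, adjusted p = 2.4e-07). Of all genes 23.1% were lower and 33.3% higher. Without yolk replicate 1 of 26 hpf the log2 changes were -2.20 and -1.64. The log2 change of hnf4g was 0.87, with a 95% interval from -0.74 to 2.48 (edgeR adjusted p = 0.35), and 0.84 without that replicate.

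From 26 to 48 hpf hnf4a rose 2.14-fold in yolk (log2 change 1.096, SE 0.25, edgeR adjusted p = 0.0011), and by 0.84 on the log2 scale without replicate 1 of 26 hpf. Over the same step hnf4b fell 1.69-fold (log2 change -0.76, SE 0.24, edgeR adjusted p = 0.020), and hnf4g rose 9.12-fold (log2 change 3.19, SE 0.80, edgeR adjusted p = 0.0036), or by 3.22 on the log2 scale without that replicate. Of all genes 12% were higher and 16.1% lower. The fall of hnf4b was not called with library totals (log2 change -0.26, adjusted p = 0.30), where the median of all genes shifted by 0.35, nor without yolk replicate 4 of 26 hpf (-0.43, adjusted p = 0.18) or replicates 2, 3 and 4 of 48 hpf in turn (-0.71, -0.72 and -0.71). Without yolk replicate 1 of 26 hpf, the library that stood apart, it was -0.996 with adjusted p = 0.00048. The ratio of hnf4b to hnf4a, which no scaling touches, dropped all the same, but a rise of hnf4a lowers it too. With library totals the log2 change of hnf4a was 1.62. The ratio therefore does not say whether hnf4b itself fell.

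Over the whole span from 6 to 48 hpf in yolk hnf4a ended 10.8-fold lower, hnf4b 3.59-fold lower and hnf4g at least 369-fold higher, with 1364 counts against 0. Of all genes 30.1% were lower and 38% higher. The edgeR adjusted p-values were 2.3e-12, 1.7e-07 and 7.4e-08. Added over the paralogs, the family's level in yolk was 2038 ± 112 CPM at 6 hpf, 1045 ± 65.0 CPM at 10 hpf, 250 ± 121 CPM at 26 hpf (296 ± 95.1 CPM without replicate 1, n = 3) and 269 ± 19.9 CPM at 48 hpf.

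In whole embryos hnf4a was 5.67-fold lower at 10 than at 6 hpf (log2 change -2.50, SE 0.26, edgeR adjusted p = 4.6e-09) and 6.85-fold lower at 26 than at 10 hpf (log2 change -2.78, SE 0.26, adjusted p = 6.6e-10). Of all genes 20% and 26% were lower over those steps, and 21.2% and 30% higher. It then rose 2.04-fold by 48 hpf (log2 change 1.03, SE 0.25, edgeR adjusted p = 0.0033), where 12.5% of genes were higher and 9.83% lower. For hnf4b the step from 10 to 26 hpf was a 6.50-fold fall (log2 change -2.70, SE 0.26, edgeR adjusted p = 9.4e-10). Its log2 changes over the other steps were 0.22 from 6 to 10 hpf (95% interval -0.27 to 0.72, edgeR adjusted p = 0.49) and -0.32 from 26 to 48 hpf (95% interval -0.83 to 0.19, edgeR adjusted p = 0.40). From 6 to 48 hpf whole embryos ended with hnf4a 19.0-fold lower and hnf4b 6.96-fold lower (edgeR adjusted p = 5.4e-14 and 1.2e-10), where 32.4% of genes were lower and 43.5% higher.

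No step of hnf4g in whole embryos passed edgeR's test, with log2 changes of -0.55, 1.51 and 0.70. Its change from 6 to 48 hpf was 1.66 on the log2 scale (95% interval -0.0040 to 3.33, edgeR adjusted p = 0.065), and 2.44 with a call without whole embryo replicate 4 of 6 hpf.

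Whether yolk and whole embryos changed unequally was tested as the difference of their log2 changes. For hnf4a it was 0.44 over the step from 6 to 10 hpf (95% interval -0.26 to 1.14), 0.32 from 10 to 26 hpf and 0.06 from 26 to 48 hpf, with edgeR adjusted p of 0.39, 0.54 and 0.94. For hnf4b it was 0.57 (95% interval -0.13 to 1.27), 0.82 and -0.43, with edgeR adjusted p of 0.24, 0.073 and 0.41. Without yolk replicate 1 of 26 hpf the second of these was 1.06 with adjusted p = 0.0053. In this fit of all libraries hnf4g alone passed, over the step from 6 to 10 hpf (edgeR adjusted p = 0.0015). With a replicate block on the libraries of that step alone hnf4a (0.43, adjusted p = 0.047) and hnf4b (0.57, adjusted p = 0.032) passed too, while the block over all libraries gave adjusted p = 0.40 and 0.27. With library totals the differences over that step were -0.06 for hnf4a and 0.06 for hnf4b (edgeR adjusted p = 0.93 for each). There the median of all genes shifted by -0.48. From 10 to 26 hpf library totals gave 0.49 for hnf4b (edgeR adjusted p = 0.19). Of all genes 26.8%, 29.5% and 22.5% passed over the 3 steps. From 6 to 10 hpf the counts of hnf4g went from 0 to 63 in yolk and from 32 to 28 in whole embryos.

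Other genes of the lipid and liver programme were read from 3 lists, chosen with earlier results of these data known. The lipoprotein list holds apolipoproteins and genes of lipoprotein assembly and uptake, and 24 of its 25 genes were tested. Of these 19 were higher in yolk than in whole embryos at 6 hpf and 1 lower, 21 and 0 at 10 hpf, 23 and 1 at 26 hpf, and 23 and 1 at 48 hpf. Over all genes 24.8%, 24.5%, 20.6% and 22.8% were higher and 27.4%, 29.9%, 25.3% and 27.5% lower. The list's median log2 differences were 3.07, 3.95, 4.71 and 4.63, against -0.05, -0.22, -0.25 and -0.04 over all genes tested. With its 0-count member at the bound the first median was 3.03.

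Most lipoprotein genes rose over the steps at which hnf4a fell. From 6 to 10 hpf in yolk 18 lipoprotein genes rose and 3 fell, and from 10 to 26 hpf 15 rose and 3 fell, with medians of 2.92 and 1.53 against 0 and 0.21 over all genes, of which 25.8% and 33.3% rose and 23.4% and 23.1% fell. In the step to 48 hpf none rose and 10 fell (median -0.41, against -0.01), where 12% of all genes rose and 16.1% fell. With library totals 2 rose and 5 fell, and with the replicate block on the libraries of that step alone 4 fell. The age of the highest yolk mean was not counted over all genes, so counts by that age have no background here. It was 26 hpf for 13 of the 24 lipoprotein genes and 6 hpf for 1. That gene was mttp, whose product transfers lipid to nascent apolipoprotein B. Its yolk means were 8851, 2957, 929 and 377 CPM over the 4 ages.

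The most abundant gene of the list was apobb.1, which encodes an apolipoprotein B, with yolk means of 1772, 27194, 112818 and 71727 CPM. The apolipoprotein A-I gene apoa1a went from 1306 to 10293, 44440 and 36275 CPM, and the apolipoprotein E gene apoeb from 18033 to 28199, 26892 and 9456 CPM. Thus apoeb had its highest mean at 10 hpf, as hnf4b did. Reads of near-identical copies such as apobb.1 and apobb.2 could be split in counting.

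Transcription factors of liver and endoderm were more divided. Of 20 tested, 14 were higher in yolk and 4 lower at 6 hpf, 15 and 2 at 10 hpf, 11 and 2 at 26 hpf, and 16 and 1 at 48 hpf, with medians of 2.65, 2.96, 1.66 and 3.19 against -0.05, -0.22, -0.25 and -0.04 over all genes. The shares over all genes are those given for the lipoprotein list. Under library totals the number lower at 26 hpf was 7, and without yolk replicate 1 of that age 4. The age of the highest yolk mean was 6 hpf for 6 of them, 10 hpf for 6, 26 hpf for none and 48 hpf for 8, with no such count over all genes. From 10 to 26 hpf in yolk 6 of the 20 rose, near the 33.3% of all genes, and 10 fell, where 23.1% of all genes did (median -0.87, against 0.21). From 26 to 48 hpf 7 rose and 5 fell, where 12% and 16.1% of all genes did. The number that fell was 8 without yolk replicate 1 of 26 hpf, 3 without its replicate 3, 2 without its replicate 4 and 3 without replicate 4 of 48 hpf.

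Among those highest at 6 hpf like hnf4a were gata6, which encodes an endoderm factor, with yolk means of 2853, 1301, 359 and 261 CPM, and foxa3, a forkhead factor gene, with 897, 337, 83.2 and 77.3 CPM. The gene of the small repressor receptor Shp, nr0b2a, was also highest at 6 hpf (4901 CPM) but stood at 459, 1344 and 435 CPM afterwards. With a peak at 10 hpf like hnf4b came gata5 (508, 898, 289 and 126 CPM), which encodes another endoderm factor. Highest at 48 hpf, like hnf4g, were nr1h4, the bile acid receptor gene, at 0.158, 0, 0.225 and 13.2 CPM, and nr5a2, a nuclear receptor gene of liver and gut, at 0.419, 11.7, 6.32 and 54.1 CPM.

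The third list, of classical liver targets of HNF4A in mammals, had 21 of 22 genes tested. Higher in yolk than in whole embryos were 14 at 6 hpf, 17 at 10 hpf, 18 at 26 hpf and 17 at 48 hpf, and lower were 1, 0, 1 and 2, with the same shares over all genes. At 6 hpf 9 were higher when only the libraries of that age were fitted. The medians were 2.08, 3.58, 4.36 and 4.52, with the third at 4.09 when 0-count genes stood at their bound. Of these genes 12 had their highest yolk mean at 48 hpf and 7 at 26 hpf, again with no such count over all genes. The transferrin gene tfa went from 2257 CPM at 6 hpf to 15245, 24414 and 12553 CPM, the antitrypsin gene serpina1 from 22.4 to 1365, 3704 and 2415 CPM, and the fibrinogen gene fga from 0.583 to 9.77, 1634 and 2102 CPM.

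Set against each paralog across the 16 yolk libraries, log2 levels of the list genes gave their highest Pearson correlation with hnf4g for 21 of 24 lipoprotein genes, 11 of 20 transcription factors and 19 of 21 classical targets. The paralog hnf4a was the highest for 1, 5 and 1 of them, and hnf4b for 2, 4 and 1. The highest value could be low or negative, with sar1b at -0.13, ttr at 0.16 and otc at 0.23 against hnf4g. Such counts were not made over all genes, so whether the lists differ from other genes is not known. Across all 32 libraries hnf4a and hnf4b correlated with each other at 0.89, hnf4a and hnf4g at -0.21, and hnf4b and hnf4g at -0.08. Within the 16 yolk libraries these values were 0.65, -0.71 and -0.66, and within the 16 whole embryo libraries 0.81, -0.52 and -0.64. They describe 8 groups of 4 libraries that share tissue and age, so each rests on few independent courses.

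The genes whose levels ran closest to each paralog were ranked by Pearson correlation of log2 CPM over the 32 libraries, among the 12353 genes that reached a mean of 10 CPM in a group. Nearest to hnf4a were slc30a1a, of the zinc exporter family (0.98), sesn3, of the sestrin family (0.98), the amino acid transporter gene slc7a8a (0.97), foxa3 (0.97) and diabloa (0.97). Nearest to hnf4b were rltgr, the purine synthesis gene ppat, a1cf, the glutamine synthetase gene glula and the cystatin gene cst3, each at 0.99. For hnf4g, whose counts are low, the values were smaller, with the reductase gene dhrs4 at 0.88, the annexin gene anxa4 at 0.87, the methionine sulfoxide reductase gene msrb2 at 0.87, cox8b at 0.86 and the folate enzyme gene mthfd1a at 0.86.

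**Figure D4:**
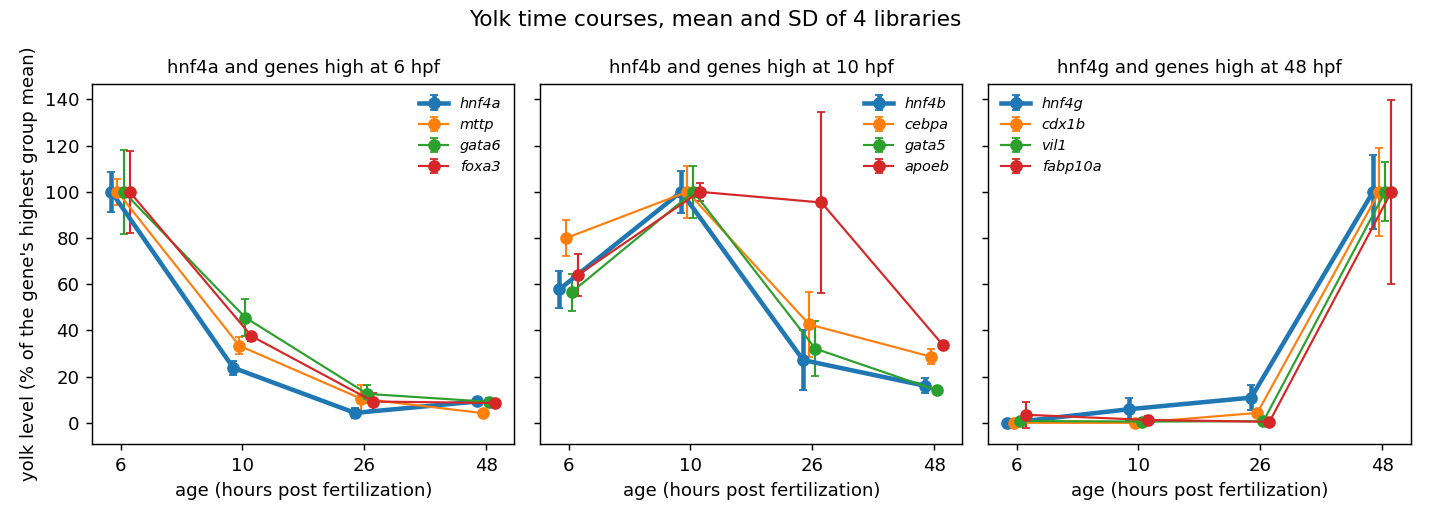
Yolk levels of hnf4a, hnf4b and hnf4g (thick lines) over age in hpf, as percent of each gene's highest group mean. Points are the mean and SD of 4 libraries. Each paralog is shown with 3 genes of the lists or markers, chosen after their values were seen. Those beside hnf4g are the markers cdx1b, vil1 and fabp10a. From 26 to 48 hpf 2 of 5 gut markers rose and 1, fabp2, fell, while 5 of 6 liver markers rose. Of all genes 12% rose and 16.1% fell over that step. From left to right the panels group genes with their highest yolk mean at 6, 10 and 48 hpf. The level of hnf4a at 48 hpf exceeds that at 26 hpf, whereas mttp, gata6 and foxa3 do not rise again.

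Markers of embryonic liver, and some of gut, rose beside hnf4a and hnf4g between 26 and 48 hpf in yolk, a step at which 12% of all genes rose and 16.1% fell. Of 6 liver markers 5 rose and none fell, and their summed level went from 307 to 703 CPM at 26 hpf to 906 to 1756 CPM at 48 hpf. Most of that sum was cp, at 227 to 605 CPM and then 634 to 1223 CPM. It was the liver marker whose rise was not called (edgeR adjusted p = 0.18). The hepatocyte fatty acid binding protein gene fabp10a had 6, 0, 0 and 0 counts at 26 hpf and 160, 443, 208 and 392 counts at 48 hpf (edgeR adjusted p = 0.00055). Of 5 gut markers 2 rose and 1 fell, and the sum went from 1761 to 3416 CPM at 26 hpf down to 454 to 722 CPM, most of it fabp2, the gene that fell. The intestinal homeobox gene cdx1b went from 2.90, 4.19, 4.57 and 3.51 CPM to 65.2, 105, 86.5 and 92.4 CPM, a 23.0-fold rise (edgeR adjusted p = 2.5e-07).

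The microvillus gene vil1 rose 123-fold over that step (edgeR adjusted p = 5.1e-07), to 37.1, 32.2, 43.5 and 35.6 CPM. Yolk replicates 2 and 4 of 48 hpf, which had the most hnf4g, also had the most fabp10a, hamp, uox and prox1a, but the least cp and leg1.1. Among gut markers these replicates had the most cdx1b, but the least vil1 and fabp2. Their liver sums of 906 and 948 CPM, mostly cp, were below those of replicates 1 and 3 (1756 and 1559 CPM). In whole embryos the summed level of the liver markers was lower, at 124 to 173 CPM at 48 hpf, with fabp10a at 22, 55, 16 and 38 counts at 48 hpf. The part of liver or gut cells in the hnf4a and hnf4g results was not tested.

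The summed level of yolk syncytial markers was higher in yolk than in whole embryos at each age, and its mean went down at every step. Until 26 hpf hnf4a fell as well, but afterwards hnf4a rose while the mean of the sum fell further. Over that last step the yolk libraries overlapped, with sums of 366 to 867 CPM and then 329 to 446 CPM, replicate 1 being the lowest at 26 hpf. These sums were mostly gata5 and gata6, which are also on the transcription factor list. By edgeR's test mxtx1 and gata5 fell over it and sox32 rose, while gata6 (adjusted p = 0.075) and mxtx2 (adjusted p = 0.29) were not called. At 26 hpf 3 of the 5 markers were higher in yolk by edgeR's test, and at 48 hpf 4, where 20.6% and 22.8% of all genes were. The summed level of mxtx1, mxtx2, sox32, gata5 and gata6 in yolk was 4909, 2402, 657 and 388 CPM over the 4 ages, and 587, 201, 32.9 and 23.8 CPM in whole embryos. In yolk mxtx1, a regulator of that layer, went from 407 CPM at 6 hpf to 0.264 CPM at 48 hpf. From 10 to 26 hpf all 5 fell, and mxtx2 had 0 counts in yolk at 26 hpf. Over that step 5 of 5 muscle, 4 of 4 neural, 4 of 5 epidermal and 8 of 8 blood markers rose, and of 10 pronephros markers, a kidney list, 4 rose and 3 fell, near the 33.3% and 23.1% of all genes. Between 26 and 48 hpf 1 syncytial marker rose and 2 fell, 1 pronephros marker rose and 3 fell, and 2 muscle, 4 epidermal, 4 blood and 0 neural markers fell. Of all genes 12% rose and 16.1% fell over that step, so the 1 of 10 pronephros markers that rose was near the share of all genes. All marker calls of both steps include yolk replicate 1 of 26 hpf. Its muscle sum was 2617 CPM, against 52.1 to 103 CPM in the other libraries of that age and 63.5 to 111 CPM at 48 hpf. Outside replicate 1 the muscle sums of the 2 ages thus overlapped. The neural and blood sums of replicate 1, at 240 and 766 CPM, stood apart as well. The part of these cells in the fall of hnf4a and hnf4b was not tested.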

How the data were processed

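Total RNA of WT zebrafish yolk tissue and whole embryos was sequenced. The authors deposited unnormalized counts by gene symbol. Groups and replicate numbers come from the sample titles. The tools and build listed are STAR 2.7.10b, featureCounts 2.0.6, Trim Galore 0.6.10, FastQC 0.12.1 and GRCz11, per the submitters' processing notes. Settings, strand and annotation: not given in the sources used here. Thus reads of overlapping genes or near-identical copies may be merged, split or lost.

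Genes were kept by filterByExpr (minimum count 10, minimum total 15), scaled by TMM and fitted with robust edgeR 4.0.16 (R 4.3.3) as 8 group means over 32 libraries (24 residual degrees of freedom, common dispersion 0.172), with 15 two-sided contrasts. Each SE was the absolute log2 change divided by the square root of F. Ratios used counts plus 0.5. Correlations used a prior count of 2 and genes with a mean of at least 10 CPM in their highest group. Genes at 0 counts in a group have bounds at 3 counts over the group. The method was tested on simulated data.

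The members, lists, markers and tests were chosen with earlier results of these data known. Named list genes were the members with the highest levels or the largest changes; cebpa in a figure and the markers named singly were chosen after their values were seen. Of the lists, apoa4b.3 and apoh were not matched, and cyp8b1 was matched through a synonym in RefSeq (GRCz12tu). No sequence or transcript length was used. No replicate pair agreed within sampling noise (chi-square per gene at least 17.6).

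Same-numbered libraries deviated together over 9034 genes for yolk against whole embryo (correlations 0.23 to 0.43 at 6 hpf, 0.19 to 0.38 at 10, 0.22 to 0.31 at 26 and 0.2 to 0.41 at 48 hpf) and for yolk at 10 against 6 hpf (0.22 to 0.3). This pairing comes from the data, and a block on the replicate number was an alternative fit. Others were DESeq2 1.42.0 size factors and Wald test, library totals, no low-count filter, the contrast's libraries alone, each library left out in turn and, chosen after seeing the data, counts halved and the block fitted to only those libraries a contrast compares.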

Additional observations from a re-analysis of the deposited data

Results flagged for a closer look

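The level of hnf4b in whole embryos at 6 hpf had a lowest library, replicate 3 at 25.3 CPM, far from the other 3, which lay between 39.8 and 41.1 CPM. In yolk at 48 hpf the highest library for hnf4b was replicate 1 at 135 CPM, against 91.6 to 96.7 CPM in the others. Chance marks about 1 in 20 groups in this way, and 23 groups with counts were looked at.

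The change of hnf4g from 6 to 10 hpf differed between tissues by a test of the difference itself, with a fitted log2 value of 8.05 (edgeR adjusted p = 0.0015). Because yolk at 6 hpf held 0 counts, the fitted size depends on the prior count and is no bound.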

How the results depend on the processing

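Results on hnf4a and hnf4b in yolk against whole embryo kept direction and call under every alternative run. Scaling by library totals turned the split of genes called higher and lower in yolk from 6514 and 7199 to 5027 and 8841 at 6 hpf, from 6448 and 7859 to 3931 and 12344 at 10 hpf, from 5406 and 6645 to 2633 and 14969 at 26 hpf and from 5998 and 7232 to 3030 and 11166 at 48 hpf. For yolk from 26 to 48 hpf it turned 3162 and 4235 into 5985 and 2626. The causes of the changes below were not tested.

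The hnf4g difference at 10 hpf lost its call with library totals (1.13), no filter (2.00), the replicate block (2.07), its own libraries alone (2.14) and the block on those (1.88), and ran from 1.51 to 2.43 with 1 library left out. The hnf4b change in yolk from 26 to 48 hpf lost its call with library totals (-0.26), its own libraries (-0.79) and the block on those (-0.69), with a leave-one-out range of -0.996 to -0.433. The rise of hnf4a over that step lost it with the block on its own libraries (1.22, adjusted p = 0.058).

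Calls were gained by hnf4g in whole embryos from 6 to 48 hpf with DESeq2 size factors (1.85), library totals (2.08), halved counts (1.63) and the Wald test (1.86), with a leave-one-out range of 1.26 to 2.44. The Wald test also called hnf4g in whole embryos from 10 to 26 hpf (1.74), the contrast's libraries alone hnf4g between tissues at 26 hpf (1.56), and library totals hnf4b in whole embryos from 6 to 10 hpf (0.59). The difference of changes was called for hnf4g from 26 to 48 hpf with halved counts (2.48), its own libraries (2.49) and the block on those (2.48). From 6 to 10 hpf it was called for hnf4b with its own libraries (0.57) and the block on those (0.57), and for hnf4a with that block (0.43). With library totals the values were 0.06 for hnf4b and -0.06 for hnf4a, with no call. For hnf4b from 10 to 26 hpf it ran from 0.50 to 1.06 with 1 library left out. With 2 added to each count the hnf4g to hnf4a ratio at 48 hpf was called (-0.59). Without 1 library a ratio has a value but no test that could pass. The replicate block changed no other member's call.

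List counts moved mostly where few genes were called. In yolk against whole embryo, transcription factors lower at 48 hpf numbered 2 with DESeq2 size factors, halved counts or the Wald test and 3 with library totals, the contrast's libraries or the block on those, against 1, with a leave-one-out range of 0 to 1. With library totals the lower ones at 26 hpf were 7 transcription factors against 2 (leave-one-out 2 to 4) and 2 classical targets against 1, and at 10 hpf 1 lipoprotein gene against 0. With no filter or the replicate block 0 lipoprotein and 0 classical genes were lower at 26 hpf against 1 each, with a leave-one-out range of 0 to 1. At 6 hpf the contrast's libraries alone gave 2 lower transcription factors against 4, 9 higher classical targets against 14 and 0 lower against 1, and with the block 2 and 0 lower. The classical range was 1 to 2 lower with 1 library left out.

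From 6 to 10 hpf in yolk 1 classical target fell with the block, halved counts, its own libraries or the block on those, against 2, with a leave-one-out range of 0 to 2, and that of falling lipoprotein genes was 1 to 3. From 26 to 48 hpf falling lipoprotein genes numbered 5 with library totals and 4 with the block on its own libraries, against 10, and rising ones 2 with totals and 1 with its own libraries, against 0. Falling transcription factors numbered 2 with totals, 3 with its own libraries and 1 with the block on those, against 5, with a leave-one-out range of 2 to 8, and falling classical targets 1 under each of these, against 2.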
